A study of Drosophila melanogaster with 6 samples.

Results

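Receptors for histamine, GABA and glutamate, grouped here as inhibitory, were described in L3 neurons of the developing optic lobe. The group holds 9 genes of the 13727 in the authors' deposited comparison, each found there by its symbol. It comprises 6 Cys-loop channel genes (ort, HisCl1, Rdl, Grd, Lcch3 and GluClalpha) and 3 genes of metabotropic GABA receptors (GABA-B-R1, GABA-B-R2 and GABA-B-R3). RNA came from labelled L3 lamina neurons that were sorted from the optic lobe 24 h after the puparium formed (24 h APF). The 3 WT samples are titled FRT40, the name of a chromosome with a recombination site. The 3 dFezf1 samples bear a mutant allele of the gene for the transcription factor dFezf, whose symbol is erm (earmuff). The driver of the label and any pooling of animals are not stated in the labels. Titles date the WT samples to November and the dFezf1 samples to December, so date and genotype cannot be told apart.

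Cys-loop receptors are pentamers with a channel through the centre, and the chloride-permeable ones usually lower a neuron's excitability when the transmitter binds. GABA-B receptors instead couple to G proteins of the Gi/o class, and a GABA-B-R1 subunit needs a GABA-B-R2 subunit to work at the cell surface. In the adult lamina, photoreceptors release histamine, and neurons such as L3 read it through the channel encoded by ort. HisCl1 encodes the other histamine-gated chloride channel and is known from lamina glia and photoreceptors of the adult.

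Each gene has 3 kinds of value from the authors' deposited table. The mean normalized count is taken over all libraries, a group mean abundance is listed for WT and for dFezf1, and the log2 fold change of dFezf1 against WT has a standard error (SE). The unit of the group means is not stated. They behave as values divided by transcript length, since over 5782 genes the count per unit of abundance had a Spearman correlation of 0.951 with exon length, so levels of different genes are set side by side only on this scale. Depth per library was not analysed. The group means carry no SD, and no value per library could be tied to a sample, so the spread between replicates is not given. The order of neighbouring levels is for that reason a description without a test. An adjusted p under 0.05 over the 9387 genes that have one counts as a call.

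Of the histamine receptor genes, ort was not detected and HisCl1 was low. ort (FBgn0003011) was listed at 0 in WT and at 0 in dFezf1, and its mean normalized count over all libraries was also 0, per the authors' deposited table. It therefore received no fold change and no p. A mean count of 0 was common there, at 28.9% of all genes. None of 65 cytosolic ribosomal protein genes was at 0 in both group means. These are abundant, with a WT sum of 32670, so they do not show whether a weakly expressed gene would be seen. HisCl1 (FBgn0037950) had a mean normalized count of 69.0, and its group means by the authors' deposited table were 0.991 (WT) and 0.301 (dFezf1). WT was the higher group for HisCl1, unlike for the other 7 receptor genes that were tested. The authors' deposited table gives HisCl1 a log2 fold change of -0.72 ± 0.77 (SE), a 95% interval from -2.23 to 0.80, and adjusted p = 0.751. A change in HisCl1 of either sign lies within that interval.

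The ionotropic GABA receptor genes differed from one another in level by orders of magnitude. Lcch3 (FBgn0010240) encodes a subunit related to the beta subunits of vertebrate GABA-A receptors. By the authors' deposited table its group mean abundance was 12.8 (WT) and 24.6 (dFezf1). Rdl (FBgn0004244) encodes the subunit of the best-known insect GABA-gated chloride channel, the target of cyclodiene insecticides, and had deposited group means of 0.0105 (WT) and 0.115 (dFezf1). On this per-length abundance scale of the authors' deposited table Lcch3 stood 1218 times above Rdl in WT and 213 times above it in dFezf1. Grd (FBgn0001134) encodes a subunit that forms a GABA-gated channel with the Lcch3 protein when both are expressed in frog oocytes. RNA levels do not show which ions a channel with Lcch3 passes, so its part in inhibition was not tested. The group name does not settle this, and a higher Lcch3 level is not a measure of more inhibition. The deposited group means of Grd were 0.249 (WT) and 1.26 (dFezf1). The Lcch3 level exceeded the Grd level 51.5 times in WT and 19.6 times in dFezf1. Rdl and Grd rested on few reads, as the authors' deposited table lists a mean normalized count of 31.4 for Rdl, 154 for Grd and 2080 for Lcch3.

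GluClalpha (FBgn0024963), the glutamate-gated chloride channel gene and a target of avermectins, was about as abundant as Lcch3 in WT. By the authors' deposited table its group means were 12.6 (WT) and 16.7 (dFezf1) and its mean normalized count 3073. The ratio of the Lcch3 level to the GluClalpha level in that deposited table was 1.02 in WT and 1.48 in dFezf1. Whether this ratio changed was not tested, because neither mean has a spread.

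Of the metabotropic GABA receptor genes, both partners of the heteromer were found, and GABA-B-R3 was near the floor. The authors' deposited table lists GABA-B-R1 (FBgn0260446) at group means of 4.77 (WT) and 7.85 (dFezf1). GABA-B-R2 (FBgn0027575) was listed there at 9.01 (WT) and 12.8 (dFezf1). GABA-B-R2 was the higher of the pair in both genotypes, by 1.89 times in WT and 1.63 times in dFezf1. By mean normalized count, not scaled for length, the authors' deposited table has the pair close together at 2155 and 2367, over 5642 exon bases of GABA-B-R1 and 3988 of GABA-B-R2. GABA-B-R3 (FBgn0031275), a more distant member of the family, was listed at 0 (WT) and 0.122 (dFezf1) with a mean normalized count of 16.5.

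**Figure D1:**
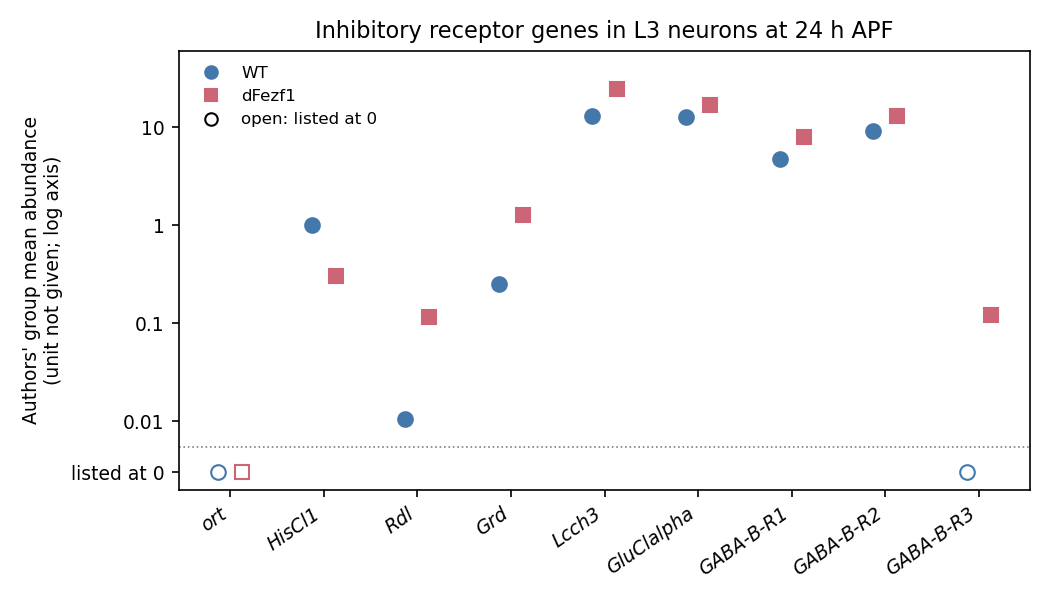
Authors' deposited group mean abundance (vertical log axis, unit not given) of each of the 9 receptor genes in WT (circles) and dFezf1 (squares), 1 mean per group with no error given. Lcch3, GluClalpha, GABA-B-R1 and GABA-B-R2 lie between 4.77 and 24.6, HisCl1 and Grd between 0.249 and 1.26, Rdl lower, and ort is listed at 0 in both groups (open symbols).

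Most of the transcript of the receptor group in these cells came from 4 of the 9 genes. Lcch3, GluClalpha, GABA-B-R1 and GABA-B-R2 made up 96.9% of the summed abundance in WT and 97.2% in dFezf1, from the means of the authors' deposited table. Lcch3 alone was 31.7% of that sum in WT and 38.6% in dFezf1, and GluClalpha 31.2% and 26.1%. HisCl1 was 2.45% of the sum in WT and 0.472% in dFezf1. Among all genes of the authors' deposited table, ranked by abundance with those at 0 lowest, Lcch3 lay at percentile 87.9 in WT and 93.5 in dFezf1. GluClalpha lay at percentiles 87.8 and 90.8, GABA-B-R2 at 84.2 and 88.4, and GABA-B-R1 at 76.3 and 83.0. In a mean over sorted cells, fewer cells that express a gene and less of its RNA per cell cannot be told apart.

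The comparison of genotypes asked whether L3 neurons express these receptors differently when dFezf is mutant. Lcch3 rose, and it was the 1 gene called among the 8 tested. Over all genes tested by the authors, 6.82% were called in either direction and 4.33% higher, so a single call among 8 is near the background. None of the 8 was called lower, where the background was 2.49%, and Lcch3 and GABA-B-R3 had an unadjusted p under 0.05 from the authors' test. The median log2 fold change of the 8 genes in the authors' deposited table was 0.55, beside 0.03 over all genes tested. It was above 0 in 7 of the 8, beside 51.5% of all genes tested. These 8 values come from the same libraries and are not independent of one another.

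For Lcch3 the authors' deposited table gives a log2 fold change of 0.97 ± 0.30 (SE), a 95% interval from 0.37 to 1.57, and adjusted p = 0.0245. On the linear scale that is 1.96-fold, with an interval from 1.30 to 2.96. The ratio of its group means in the deposited table was close to this, at 1.92. By p, Lcch3 ranked 544 among the 9387 genes tested, and 92.3% of them had a lower log2 fold change. Among the 1985 genes of the authors' deposited table with a mean normalized count of 1000 or more, a range that holds Lcch3, 4.79% were called higher.

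The Lcch3 call depended on the threshold. It did not pass an adjusted p of 0.01, where 5.05% of all genes did and none of the 8 receptor genes. Lcch3 passed, as the 1 receptor gene called, in 4 other settings of the authors' deposited table. The background of calls was 6.46% with no filter on low counts, 5.07% among genes with a mean count of 100 or more, and 3.82% where the 95% interval had to exclude 0. It was 3.18% among genes above 0 in both groups, where Lcch3 came nearest the threshold (adjusted p = 0.0460).

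The other well-counted receptor genes did not pass the test. GABA-B-R1 was given a log2 fold change of 0.56 ± 0.55 (SE) by the authors' deposited table (adjusted p = 0.735). GABA-B-R2 was given 0.55 ± 0.40 there (adjusted p = 0.589), so the point values of these heteromer partners were alike. Their 95% intervals ran from -0.52 to 1.64 and from -0.24 to 1.34 in log2 units. For GABA-B-R2 the interval covers 0.844-fold to 2.54-fold, so a rise as large as that of Lcch3 lies inside it. The log2 fold change of GluClalpha was 0.49 ± 0.49 by the authors' deposited table, with an interval from -0.47 to 1.45 (adjusted p = 0.740). Its interval likewise holds the value of Lcch3, and no difference between Lcch3 and another receptor gene was tested.

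Receptor genes with few reads had wide intervals. Rdl had a log2 fold change of 0.98 ± 0.75 (SE), nearly that of Lcch3, with an interval from -0.50 to 2.46 by the authors' deposited table (adjusted p = 0.529). For Grd it was 0.51 ± 0.73 with an interval from -0.92 to 1.94 (adjusted p = 0.826). The fold changes of these genes were smaller than the gap between their group means in the authors' deposited table. The means of Rdl had a ratio of 11.0, or 3.45 in log2 units, and those of Grd a ratio of 5.05, or 2.34 in log2 units. Likewise the means of HisCl1 differed by -1.72 in log2 units beside its fold change of -0.72. GABA-B-R3 had a log2 fold change of 0.70 ± 0.64 by the authors' deposited table, with an unadjusted p of 0.0230 and an adjusted p of 0.219. Its test statistic there was 2.27 while its fold change over SE was 1.09, whereas for Lcch3 both were 3.19. Since the WT mean of GABA-B-R3 was listed at 0, no ratio is given.

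**Figure D2:**
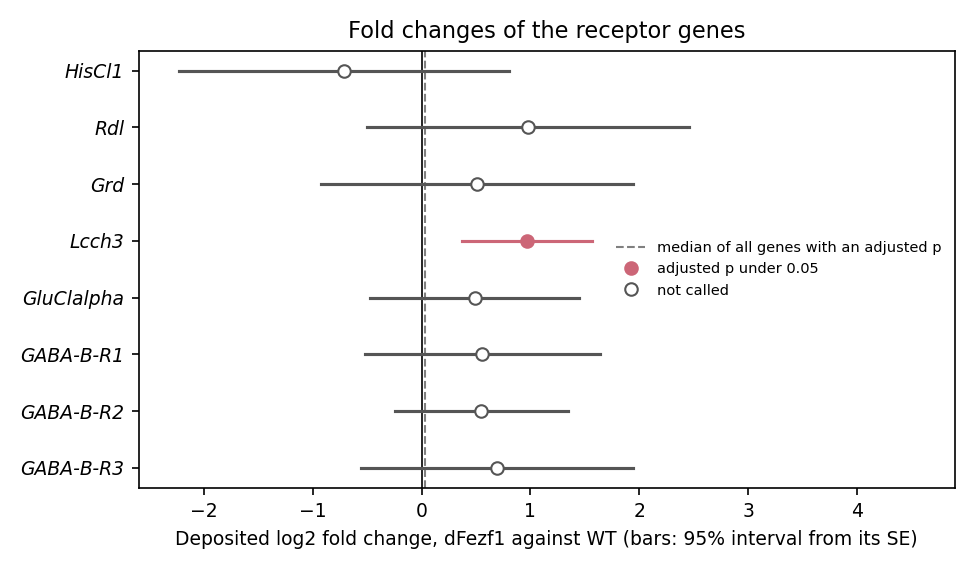
Deposited log2 fold change of dFezf1 against WT (horizontal axis) for the 8 receptor genes with an adjusted p, with bars for the 95% interval from the deposited SE and a dashed line at the median of all genes tested, 0.03. The interval of Lcch3 (filled) runs from 0.37 to 1.57 and those of the other 7 genes (open) include 0.

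**Figure D3:**
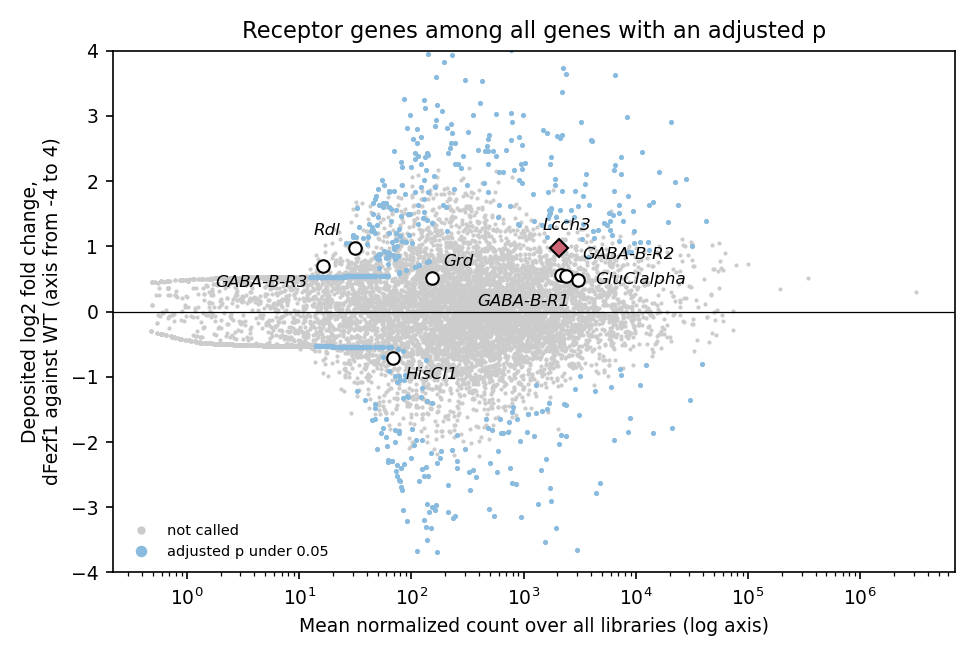
Deposited log2 fold change (vertical axis, drawn from -4 to 4, with 39 genes beyond) against mean normalized count over all libraries (log axis) for genes with an adjusted p, each a dot, with the receptor genes as larger symbols. Lcch3, GluClalpha, GABA-B-R1 and GABA-B-R2 sit together at counts from 2080 to 3073, while Rdl, HisCl1 and GABA-B-R3 lie below a count of 100.

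Other genes overlap some of the receptor loci. Positions are those of the annotation of build BDGP6, and the authors' deposited table has the same start and end for all 9 genes. Lcch3 lies on chromosome X, 15925105 to 15928529, plus strand, and has 1 annotated transcript with 8 exons. Of its exon bases 24.0% (456 bases) are also exons of Ranbp16 on the opposite strand, and 7.36% (140 bases) are exons of the antisense gene asRNA:CR45000. Use of strand in the counting is not stated, so reads of Lcch3 and of these partners cannot be told apart within the overlap. Ranbp16, which encodes a nuclear transport receptor, had a mean normalized count of 646 and a log2 fold change of 0.06 by the authors' deposited table (adjusted p = 0.984). asRNA:CR45000 was not analysed here.

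Grd lies on chromosome 3L, 17823333 to 17839767, plus strand, and shares 1118 exon bases, 27.5% of its own, with CG5577 on the opposite strand. CG5577 had a mean normalized count of 97.4 and a log2 fold change of -0.03 by the authors' deposited table, so the count of 154 for Grd is uncertain to that extent. HisCl1 lies on chromosome 3R, 11787176 to 11789393, plus strand, and shares 101 exon bases, 5.40% of its own, with Sbf on the opposite strand. The other 6 receptor genes share no exon base with another annotated gene. ort (19659748 to 19663672) and GluClalpha (19730715 to 19775231) lie near each other on chromosome 3R, both on the plus strand. A gap of 67042 bases with 3 protein-coding genes wholly inside it separates GluClalpha, one of the most abundant receptor genes, from ort, listed at 0.

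Rdl lies on chromosome 3L, 9145838 to 9182149, minus strand, and has 6 annotated transcripts, while GluClalpha has 11. Counts per gene do not show which of these were present. GABA-B-R1 lies on chromosome 2L, 15016331 to 15034704, plus strand, and GABA-B-R2 on chromosome 3R, 21770333 to 21775840, minus strand. GABA-B-R3 lies on chromosome 2L, 749945 to 762399, plus strand. The longest annotated coding sequences give proteins of 485 residues for ort and 426 for HisCl1. Those of the other channel subunits run from 463 residues (GluClalpha) to 686 (Grd), and the GABA-B receptors have 841 (GABA-B-R1), 1224 (GABA-B-R2) and 1305 (GABA-B-R3). The authors place all 6 channel genes in their category of membrane transporters, in which 9.22% of 488 tested genes were called.

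The nicotinic acetylcholine receptor subunits form cation-permeable Cys-loop channels and were set beside the 6 Cys-loop genes of the receptor group. By the means of the authors' deposited table, the nicotinic genes summed to 55.0 (WT) and 128 (dFezf1), and those 6 genes to 26.7 and 43.0. Much of the nicotinic rise was nAChRalpha7, at 17.0 (WT) and 73.4 (dFezf1). The means of nAChRbeta2 were 6.63 and 2.24, and it was not called (log2 fold change -0.93 ± 0.69, adjusted p = 0.594). Of 9 nicotinic genes tested, 2 were called higher and none lower, beside 4.33% and 2.49% of all genes tested. The fold change was above 0 in 7 of the 9, beside 51.5% of all genes tested. nAChRalpha7 rose by 2.14 ± 0.33 (SE) on the log2 scale and nAChRalpha1 by 1.56 ± 0.53, per the authors' deposited table (adjusted p = 1.18e-08 and 0.0491). The nAChRalpha1 call was lost with no filter on low counts (adjusted p = 0.0510), among genes with a mean count of 100 or more (0.0612), above 0 in both groups (0.0844) and at a threshold of 0.01. The difference between the nicotinic genes and those of the receptor group was not tested.

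Related genes formed 9 lists with 76 genes matched and 64 tested. Some lists hold genes that make, load, take up or respond to the same transmitters. The others hold nicotinic subunits, further Cys-loop channels, chloride transporters, effectors of GABA-B receptors, and genes of receptor assembly and adhesion. By the authors' adjusted p-values 5 of the 64 were called higher and 1 lower. Over all genes tested, 4.33% were called higher and 2.49% lower, 6.82% in either direction. The histamine list had no call among 3 tested genes, and Hdc, which encodes the histamine-synthesizing enzyme, was listed at 0 in both groups. None of 5 tested genes of the GABA list was called. The vesicular GABA transporter gene VGAT was at 7.33 (WT) and 7.24 (dFezf1) by the authors' deposited table, while Gad1, for the GABA-synthesizing enzyme, had a mean normalized count of 0.481. The glutamate cycle list had no call among 7 tested genes, and the vesicular glutamate transporter gene VGlut had adjusted p = 0.0916.

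Of the other glutamate receptors, 2 of 11 tested were called higher, both at low counts. GluRIB had a mean normalized count of 32.5 and a log2 fold change of 1.58 ± 0.77 by the authors' deposited table, and clumsy, a kainate-type receptor gene, had a count of 15.5 with WT listed at 0 and an interval that includes 0. Chloride transporters set the direction of the current through channels such as those of Rdl and GluClalpha. Of 6 genes tested 1 was called higher, NKCC, with WT listed at 0, adjusted p = 0.0475 and a fold change interval that includes 0. The potassium chloride cotransporter gene kcc was at 0.232 (WT) and 0.367 (dFezf1) by the authors' deposited table (adjusted p = 0.888). Among the G protein genes and effectors of GABA-B receptors 1 of 10 was called, the inward rectifier gene Irk1, lower with dFezf1 listed at 0, a mean normalized count of 22.1 and an interval that includes 0. The G protein genes Gbeta13F, Ggamma1 and Galphao had log2 fold changes of 0.20 ± 0.23, -0.35 ± 0.41 and 0.80 ± 0.39 by the authors' deposited table (adjusted p = 0.784, 0.795 and 0.302). The summed abundance of this list was 554 (WT) and 473 (dFezf1).

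**Figure D4:**
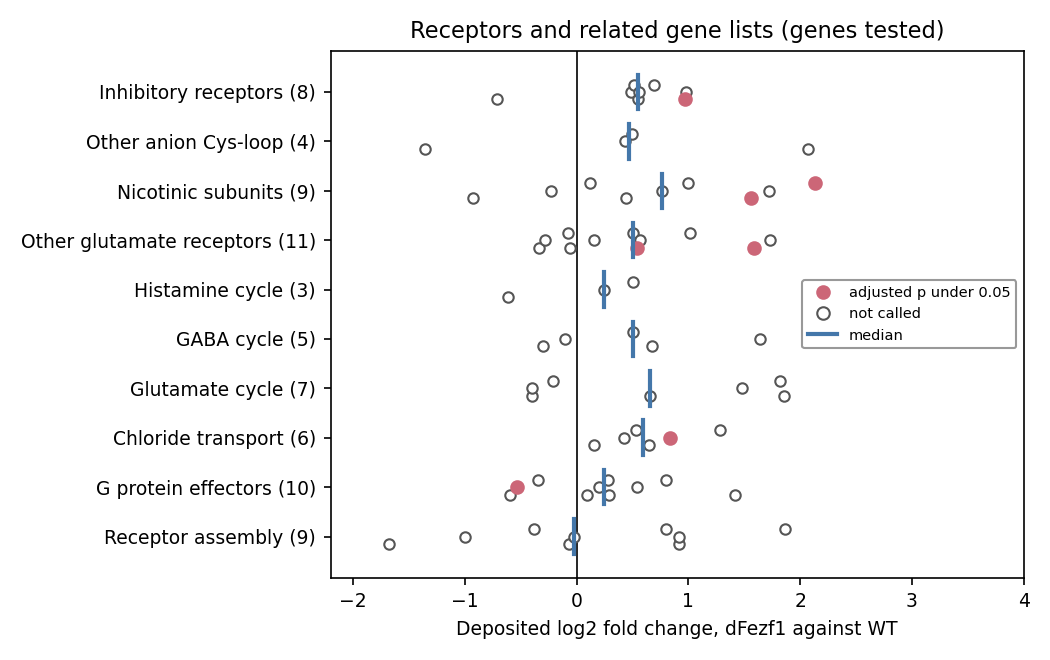
Deposited log2 fold change of dFezf1 against WT (horizontal axis) for every tested gene of the receptor group and of 9 related lists, with the number tested in brackets, calls filled and a bar at each median. The receptor group has a median of 0.55 with Lcch3 the filled point, and the nicotinic list has a median of 0.77 with 2 filled points.

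Markers of the sorted cells and of other cells were read beside the receptors, with 6.82% of all genes called and 4.33% called higher as the background. The mutated gene erm was at 55.1 (WT) and 49.2 (dFezf1) by the authors' deposited table (adjusted p = 0.986), and since an allele may leave the RNA level as it is, this is no check of the labels. Of the neuronal and lamina genes 1 of 8 tested was called, the forkhead factor gene slp1, at 51.3 (WT) and 144 (dFezf1). The neuronal gene elav and the lamina genes dac and sim, with group means from 9.90 to 63.6, were present in both genotypes, and tll was listed at 0. The list summed to 308 (WT) and 489 (dFezf1). The synaptic genes brp, Syt1 and nSyb had log2 fold changes of 1.03 ± 0.41, 0.92 ± 0.39 and 0.83 ± 0.41 by the authors' deposited table, near that of Lcch3, with none of them called.

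Glial markers, 2 of 9 tested called (drpr and gcm), summed to 12.1 (WT) and 37.7 (dFezf1), mostly from drpr, with Mdr65 at 0 in both groups. Their fold change was above 0 in 7 of the 9. Among the uncalled ones, Gs2 was at 0.262 and 4.08 (adjusted p = 0.119) and repo at 0.162 and 0.356 (adjusted p = 0.966). Beside the glial markers, HisCl1, known from lamina glia, was at 0.991 and 0.301. Photoreceptor markers, none of 8 tested called, summed to 11.1 and 19.8, mostly from norpA. Their fold change was above 0 in 8 of the 8, beside 51.5% of all genes tested. Listed at 0 in both groups were ninaE, trp, Arr2, Rh3, Rh4, Rh5 and Rh6. Whether photoreceptors express these by 24 h APF was not tested. Factors of other lamina neurons, 1 of 6 tested called (svp), summed to 12.8 and 14.2, mostly from zfh1 at 12.4 and 11.5. The called svp was at 0.0408 (WT) and 2.02 (dFezf1). Those of other optic lobe neurons, 4 of 11 tested called (ey, TfAP-2, ct and dan), summed to 9.99 and 23.4. Of these calls gcm, ey and TfAP-2 had WT listed at 0 and fold change intervals that include 0, and ct did not pass among genes above 0 in both groups (adjusted p = 0.0832). All calls in these lists were higher in dFezf1, and the part of these cells in the rise of Lcch3 was not tested.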

How the data were processed

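Total RNA went into Smart-seq2 libraries finished with a Nextera kit, per the labels' protocols. FastQC, STAR, Salmon, DESeq2 and build BDGP6 are named without versions in the submitters' processing notes, and their roles are not stated. The authors' deposited comparison lists mean normalized counts and group mean abundances, both a signal that is never negative. It also lists a log2 fold change with its SE, a test statistic (a score), p-values and adjusted p-values, per the file headers. In 3798 of 9755 genes the fold change over its SE lay 1% or more from the statistic, so fold change and p come from different estimates there. Among called genes listed at 0 in 1 group, clumsy, gcm, ey and TfAP-2 each had a log2 fold change of 0.54 ± 0.59. That of Irk1 was -0.54 ± 0.59. For these genes an interval that includes 0 does not decide whether the call holds. A further 12 columns per library, counting those of the count table, match no sample label and were not used. The planned edgeR fit was therefore replaced by the authors' comparison.

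Benjamini-Hochberg values recomputed over 9387 genes equalled the deposited adjusted p within 1% in all 9387. Fold changes and group means had equal signs in 317 of 317 called genes above 0 in both groups. Intervals of 95% are normal, from the deposited SE, and are centred on the deposited fold change, which can differ from the ratio of group means. Alternatives changed the genes adjusted over, the threshold or the call rule, and the adjustment was tested on simulated data. List genes were matched by identifier through the gene name table, and 3 of 132 symbols had no match. Named genes are the 9 receptors, erm, calls of a list and up to 4 of its further genes with the highest mean count. Gad1, Hdc, VGlut, kcc, Mdr65, sim, tll, pHCl-2 and the photoreceptor markers at 0 were named after their values were seen. Members and lists were chosen with earlier results of these data known. Python 3.11.15, pandas 2.3.3, numpy 2.4.6, SciPy 1.17.1 and matplotlib 3.10.9 were used.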

Additional observations from a re-analysis of the deposited data

How the results depend on the processing

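The count of receptor genes called stayed at 1, all of it Lcch3, without a filter on low counts (adjusted p = 0.0255), among genes whose mean normalized count was 100 or more (0.0312), among genes above 0 in both groups (0.0460) and where the 95% interval had to exclude 0. At a threshold of 0.01 the count of receptor genes called, and called higher, was 0. Of the 6 calls in the related lists, 5 were called without a filter, 1 at a mean count of 100 or more, 2 above 0 in both groups, 3 at a threshold of 0.01 and 3 where the 95% interval excludes 0, and each of these is among the 6. Fewer list genes were tested at a mean count of 100 or more and above 0 in both groups, 42 and 56 in place of 64. Without a filter the call lost was nAChRalpha1 (adjusted p = 0.0510). At a threshold of 0.01 NKCC (adjusted p = 0.0475), GluRIB (0.0206) and nAChRalpha1 (0.0491) were lost. The interval rule removed NKCC, Irk1 and clumsy, each listed at 0 in 1 group. The log2 ratio of the group means differed from the deposited fold change by more than its SE in HisCl1, Rdl and Grd, with the same sign. No paired analysis was possible because the labels give no shared replicate numbers and the columns per library carry none. Leaving out replicates, edgeR and DESeq2 on the counts were not run, since no column could be tied to a sample. Depth per library was not analysed, so the least level at which ort could have been seen is not given. The lowest WT group mean above 0 of any gene was 0.000263.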

Other observations

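Further Cys-loop genes were listed as anion channel subunits or candidates, several without a known transmitter. They were mostly near the floor of the authors' deposited table, and none of 4 tested was called. CG8916, a gene related to GABA receptor subunits, had group means of 1.25 (WT) and 0.220 (dFezf1) by the authors' deposited table, and a log2 fold change of -1.35 ± 0.78 (SE, adjusted p = 0.424). CG6927 had 0.237 (WT) and 2.999 (dFezf1) there, and a log2 fold change of 2.07 ± 0.80 (adjusted p = 0.0763). pHCl-2 was listed at 0 in both groups. Of 9 tested genes for receptor assembly and synaptic adhesion none was called, and Nrx-1, which encodes a neurexin, had a log2 fold change of 0.91 ± 0.43 by the authors' deposited table (adjusted p = 0.286).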
